A study of Mus musculus with 8 samples.

Results

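The 9 genes described here make and move bile acids in the liver, and they were taken by name from 21951 protein-coding genes of the GENCODE vM21 annotation of the mouse genome mm10. Of these genes, 4 encode enzymes of bile acid synthesis (Cyp7a1, Cyp7b1, Cyp8b1 and Cyp27a1) and 5 encode transporters (Abcb11, Abcb4, Abcc2, Slc10a1 and Slco1b2). For each gene the peaks over its body, from annotated start to annotated end, were read from the lists of an RNA immunoprecipitation experiment (RIP-seq), in which RNA held by an antibody's target is pulled down and sequenced. Liver nuclei came from wild-type C57BL/6 mice aged 14 weeks, which had been kept in equal light and dark phases and fed in the dark phase only. RNA was pulled down with an antibody to NONO from fasted liver (zeitgeber time 10), from liver 2 h after re-feeding (zeitgeber time 14) and from liver 10 h after re-feeding (zeitgeber time 22), and with IgG, whose feeding state and time of day are not given in the labels. Feeding state and time of day therefore cannot be told apart, and the same IgG list stands beside all 3 times.

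NONO is an RNA-binding protein of the nucleus and a component of paraspeckles, nuclear bodies built on a long non-coding RNA. Hepatocytes convert cholesterol to bile acids by the classic pathway, which opens with the rate-limiting 7-alpha-hydroxylase CYP7A1, or by the alternative pathway, which opens with the mitochondrial sterol 27-hydroxylase CYP27A1 and continues with the oxysterol 7-alpha-hydroxylase CYP7B1. CYP8B1, the sterol 12-alpha-hydroxylase, sets how much cholic acid is made. Bile acids return from the gut with each meal, are taken up from portal blood by SLC10A1 (NTCP) and by organic anion transporters such as SLCO1B2, and leave the hepatocyte across the canalicular membrane through ABCB11 (the bile salt export pump). ABCB4 moves phosphatidylcholine into bile, and ABCC2 moves conjugated bilirubin and other conjugates.

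The immunoprecipitates held 21032764 (fasted), 21091048 (2 h), 18275033 (10 h) and 18995778 (IgG) tags, and their lists held 38209, 61737, 50609 and 55946 peaks in that order. Each library was a pool of 2 experiments and each group had 1 library, so no value has a replicate, no test between times was possible, and a difference of 2-fold is used only as a mark of size. Values are normalised tags, the authors' number of tags in a peak per 10000000 tags of the library, summed over the peaks of a gene. Intervals printed beside them are 95% exact Poisson intervals and cover counting error only. A single peak took 37.5% of the IgG library, so IgG values per 10000000 tags outside that peak are 1.60 times those printed.

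A peak lay over 1 (fasted), 3 (2 h), 3 (10 h) and 3 (IgG) of the 4 synthesis genes and over 4, 5, 5 and 5 of the 5 transporter genes. Among all protein-coding genes 28.4% (fasted), 33.9% (2 h), 32.7% (10 h) and 34.6% (IgG) carried a peak, and among those of at least 10 kb 41.2%, 47.5%, 46.1% and 47.7% did. The members' share was thus above the background in the IgG list too. A NONO peak that no IgG peak overlapped by 1 bp (an IgG-free peak) lay over 1 (fasted), 3 (2 h) and 2 (10 h) synthesis genes and 3, 4 and 5 transporter genes, beside 26.4%, 31.3% and 30.0% of all protein-coding genes and 38.7%, 44.7% and 43.0% of those of at least 10 kb. Cyp8b1, a gene of 1.95 kb with a single exon, had no peak in any of the 4 lists. Cyp7a1, Cyp27a1 and Slc10a1 had none in the fasted list.

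Coding sequence was nearly absent from these peaks. Of the 173 NONO peaks over the 9 genes, 172 had their midpoint in an intron, and the 5 exons with coding bases inside a peak are shown, because they are what the peaks held of the coding sequence of the transcripts used. A fasted peak also covered exon 2 of Abcb11, whose 153 bases are 5′ untranslated, and another lay in the 3′ untranslated part of exon 32 of Abcc2. They were read 5′ to 3′ on the gene's strand from the GENCODE vM21 transcripts, with the bases inside the peak in capitals. Exon 2 of Cyp7b1 (chr3:18103701-18103837, minus strand) lay wholly inside a 2 h peak and exon 5 of Abcb4 (chr5:8905975-8906032, plus strand) wholly inside a 10 h peak. Exon 17 of Abcb11 (chr2:69284590-69284791, minus strand) and exon 13 of Abcc2 (chr19:43811116-43811262, plus strand) were entered by the edge of a 2 h peak, over 24 and 22 bases. Exon 14 of Abcc2 (chr19:43812431-43812515, plus strand) was entered by a fasted peak over 30 bases.
Cyp7b1 exon 2: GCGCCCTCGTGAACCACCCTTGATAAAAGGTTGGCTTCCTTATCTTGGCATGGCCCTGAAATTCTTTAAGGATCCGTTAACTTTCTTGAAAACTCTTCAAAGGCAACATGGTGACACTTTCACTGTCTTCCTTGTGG
Abcb4 exon 5: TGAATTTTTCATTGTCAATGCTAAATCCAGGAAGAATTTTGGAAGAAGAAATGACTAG
Abcb11 exon 17: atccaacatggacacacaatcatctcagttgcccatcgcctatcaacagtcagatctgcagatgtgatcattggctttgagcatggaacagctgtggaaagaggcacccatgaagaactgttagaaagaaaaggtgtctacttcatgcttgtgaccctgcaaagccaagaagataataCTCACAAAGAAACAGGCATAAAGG
Abcc2 exon 13: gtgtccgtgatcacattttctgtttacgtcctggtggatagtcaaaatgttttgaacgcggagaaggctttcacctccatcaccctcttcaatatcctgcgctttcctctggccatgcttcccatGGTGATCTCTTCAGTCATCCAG
Abcc2 exon 14: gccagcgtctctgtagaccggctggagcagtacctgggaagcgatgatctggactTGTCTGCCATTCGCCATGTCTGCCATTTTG

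Cyp7b1, the oxysterol 7-alpha-hydroxylase gene, held nearly all of the synthesis signal at every time. It carried 6729.9 (fasted; interval 6619.6 to 6841.8), 34951.4 (2 h; 34699.5 to 35204.6) and 3395.2 (10 h; 3311.4 to 3480.9) normalised tags, against 5874.6 (5766 to 5984.5) in the IgG library. The 2 h value was 5.19 times the fasted one and the 10 h value 0.504 times it, while the median ratio over all genes with a peak in both lists was 1.82 at 2 h and 1.44 at 10 h. Set against 2 h, the 10 h value was 0.0971 times as high, with a median of 0.790 over all genes. Against IgG the 2 h value was 5.95-fold higher (3.72-fold outside the most tagged IgG peak), whereas the fasted ratio was 1.15 and the 10 h ratio 0.578. Input tags under the same peaks moved in the same order, at 2216.0 (fasted), 12302.4 (2 h) and 1419.3 (10 h) per 10000000 tags, so that the ratio of the sums was 3.04, 2.84 and 2.39. Input was known only where a peak was called, so these sums also follow the length called. The sums of normalised tags follow that length too. Per kb of peak the gene held 328.5 (fasted), 287.0 (2 h), 86.3 (10 h) and 66.4 (IgG) normalised tags, so its peaks were densest in fasted liver.

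Peak number said little about Cyp7b1, because neighbouring windows had been joined. The gene held 17 (fasted), 16 (2 h) and 31 (10 h) peaks, against 31 in the IgG list, over 20486, 121790, 39353 and 88453 bp. At 2 h the fewest peaks thus covered 71.1% of the gene body, with single peaks of up to 26165 bp, while fasted peaks covered 12.0%, 10 h peaks 23.0% and IgG peaks 51.6%. The gene spans 171.389 kb (chr3:18071950-18243338, minus strand), of which its first intron takes 139.25 kb. That intron held 99.7% (fasted), 98.2% (2 h), 96.2% (10 h) and 93.8% (IgG) of the tags. The 2 h tags per kb of peak were highest near the start of the gene, at 798.8 in the peak from 3.834 to 7.272 kb and 451.4 in the next, and were 133.9 in the peak from 133.487 to 140.474 kb. They did not fall steadily, at 70.3 from 127.24 to 132.848 kb and 284.6 from 157.517 to 158.54 kb. The other lists were densest at the first place too, at 822.6 (fasted), 213.2 (10 h) and 148.7 (IgG) per kb.

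**Figure D1:**
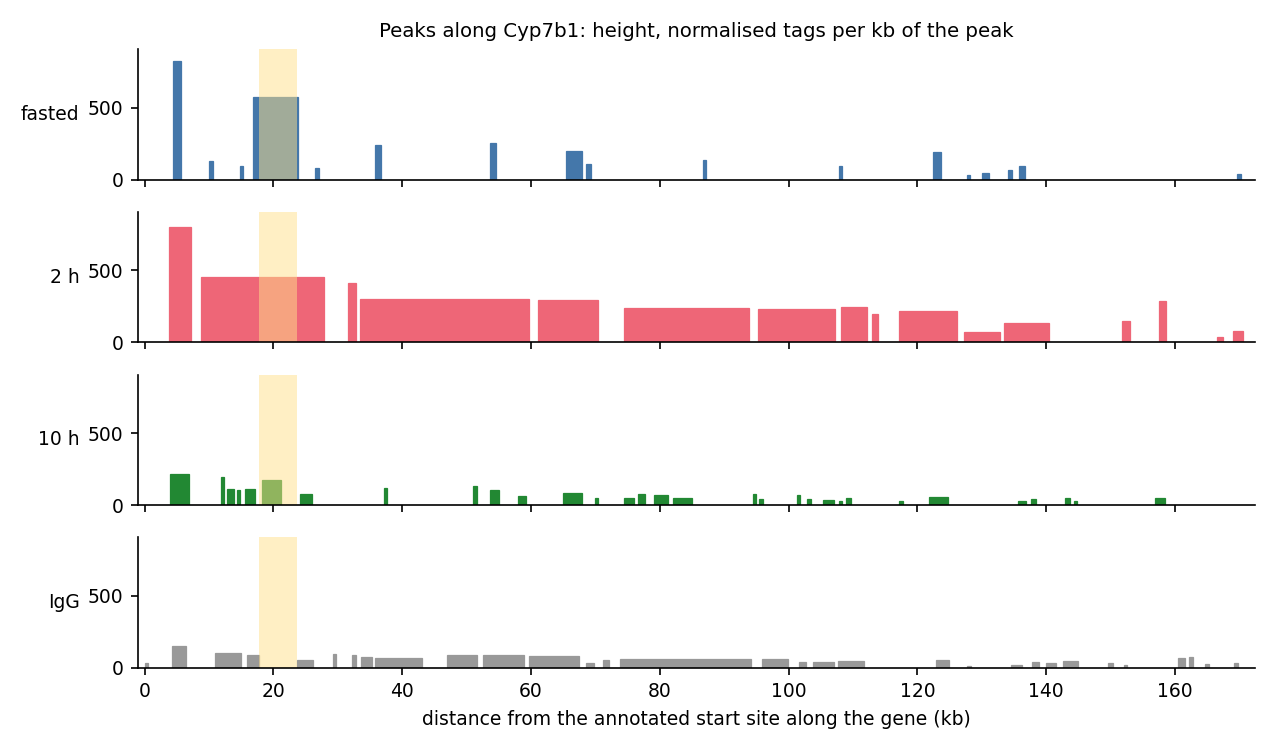
Peaks along Cyp7b1 in 4 tracks (fasted, 2 h and 10 h NONO, then IgG), with distance from the annotated start site in kb on the x axis and normalised tags per kb of the peak as bar height on a common linear scale; bar width is the peak's extent. The shaded band is the 5.832 kb gap between IgG peaks, from 17.821 to 23.653 kb, which the NONO peak of highest fold spans (fasted and 2 h) or lies within (10 h), and the 2 h peaks are seen to run nearly without break through the first intron.

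A stretch about 20 kb into the first intron had the highest fold over input in the gene at each time. The fasted peak (chr3:18219485-18226574) held 4078.4 normalised tags at 4.21-fold, the 2 h peak (chr3:18215563-18234600) 8594.2 at 3.61-fold and the 10 h peak (chr3:18222119-18225053) 518.2 at 4.07-fold. Per kb of peak these were 575.3 (fasted), 451.4 (2 h) and 176.6 (10 h) normalised tags, so the fasted peak was the densest. IgG peaks ended at 18219685 and began again at 18225517 on either side, leaving a gap of 5832 bp with no IgG peak. The 10 h peak lay wholly within the gap, whereas IgG peaks covered 17.7% of the fasted and 43.6% of the 2 h peak. Those folds were not extreme within the lists, since 18.8% (fasted), 36.1% (2 h) and 18.04% (10 h) of all peaks had a higher one. That 1 peak held 4078.4 of the 6729.9 fasted tags of the gene, and the other fasted peaks had folds of 2.00 to 2.74. At 2 h the next highest fold was nearly the same, at 3.58 in a peak from 61.094 to 70.4 kb. Intron 1 also contains Gm23686, a small nuclear RNA gene on the same strand, under peaks of 475.0 (fasted), 2713.5 (2 h), 234.7 (10 h) and 655.4 (IgG) normalised tags, and these were not separated from Cyp7b1.

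Cyp27a1, the sterol 27-hydroxylase gene (chr1:74713574-74737892, plus strand), had no fasted peak, 515.4 normalised tags at 2 h (interval 485.2 to 547.0) and 181.6 at 10 h (162.7 to 202.3), against 209.0 in the IgG library. The 10 h value was 0.352 times the 2 h one. Its 2 h peaks numbered 4, of which 1 was IgG-free, and both 10 h peaks were IgG-free. The larger of those, of 149.9 normalised tags at 2.11-fold in intron 2 (chr1:74733946-74734862), overlapped a 2 h peak of 235.2 that did meet IgG.

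Cyp7a1, the gene of the rate-limiting enzyme of the classic pathway (chr4:6265612-6275633, minus strand), had no fasted peak, 261.7 normalised tags at 2 h and 199.7 at 10 h, both below the 771.7 of the IgG library. Most of this lay in 1 place in intron 1, starting 0.19 kb from the start site, with 206.7 (2 h), 199.7 (10 h) and 675.9 (IgG) normalised tags at 2.03-fold, 2.04-fold and 2.21-fold. IgG peaks covered 99.6% of the 2 h and 100% of the 10 h peak there. The only IgG-free peak of the gene was a 2 h peak in intron 4 with 55.0 normalised tags at 2.12-fold. Without Cyp7b1 the synthesis genes together held 777.1 normalised tags at 2 h, 381.3 at 10 h and 980.7 in the IgG library.

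Transporter genes held 2463.5 (fasted; interval 2397.2 to 2531.8), 3422.1 (2 h; 3343.8 to 3502.2) and 8402.4 (10 h; 8270.3 to 8536.7) normalised tags together, against 4001.4 in the IgG library. The highest sum was thus at 10 h, where that of the synthesis genes was lowest of the 3 times, at 3776.5, against 6729.9 in fasted liver and 35728.5 at 2 h. That synthesis order is the order of Cyp7b1 alone. Without Cyp7b1 the synthesis sum was 0 (fasted), 777.1 (2 h) and 381.3 (10 h), lowest in fasted liver. With peaks of at least 3-fold over input alone, the transporter sum was 0 (fasted), 134.6 (2 h) and 44.3 (10 h), highest at 2 h. The members did not move together. Of the 4 transporter genes with a peak in both lists, 2 were at least 2-fold higher at 2 h than in fasted liver (Abcb11 and Slco1b2) and 1 at least 2-fold lower (Abcc2), beside 45.3% and 7.69% of all genes with a peak in both. At 10 h 3 were higher than in fasted liver (Abcb11, Abcb4 and Slco1b2) and Abcc2 was lower, beside 32.1% and 9.06% of all genes. Between 10 h and 2 h the same 3 of 5 transporter genes were higher at 10 h, and Slc10a1 was lower, beside 12.8% and 23.9% of all genes. Cyp7b1 and Cyp27a1 were lower at 10 h in that comparison and Cyp7a1, at 0.763 times its 2 h value, was neither. These comparisons share libraries and are not independent of each other.

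**Figure D2:**
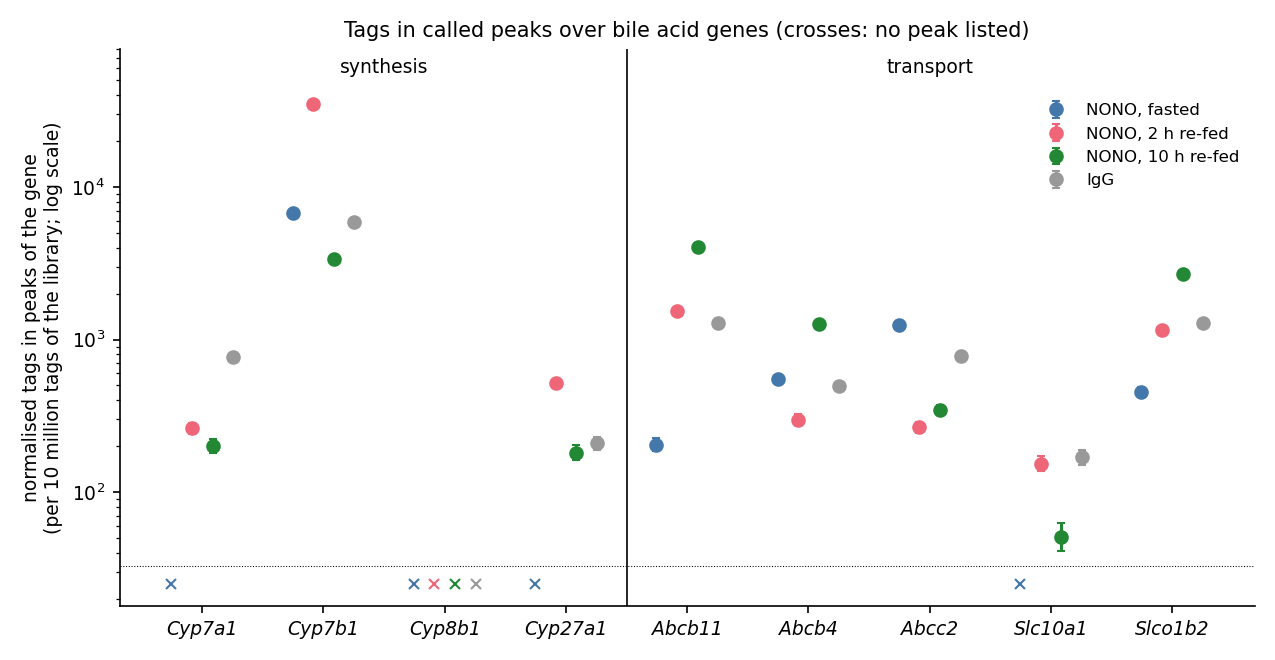
Normalised tags in the peaks of each of the 9 genes on a logarithmic y axis, for fasted, 2 h and 10 h NONO and for IgG from left to right within a gene; bars are 95% exact Poisson intervals, and crosses under the dotted line mark genes with no peak listed. Cyp7b1 reaches 34951.4 at 2 h, while Abcb11 and Slco1b2 are highest at 10 h and Abcc2 is highest in fasted liver.

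Abcb11, the bile salt export pump gene (chr2:69238282-69342616, minus strand), showed the widest difference between times among the transporters. It held 204.3 (fasted; interval 185.6 to 224.7), 1542.8 (2 h; 1490.3 to 1596.8) and 4059.6 (10 h; 3967.8 to 4153.1) normalised tags, against 1277.6 in the IgG library. The 2 h value was 7.55 times and the 10 h value 19.9 times the fasted one, and the 10 h value was 3.18-fold higher than IgG (1.99-fold outside the most tagged IgG peak). Peaks numbered 7 (fasted), 16 (2 h) and 20 (10 h), of which 3, 5 and 8 were IgG-free, against 24 in the IgG list. Input tags under the peaks were 88.9 (fasted), 702.1 (2 h) and 1891.0 (10 h) per 10000000, so the immunoprecipitate stood at 2.30, 2.20 and 2.15 times its input. The part of the input, called only where a peak was called, in the difference between times was not tested. With peaks of at least 3-fold alone, the sums were 0 (fasted), 33.2 (2 h) and 44.3 (10 h).

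The strongest place in Abcb11 was in intron 11, about 49 kb from the start site, with no fasted peak, 603.1 normalised tags at 2 h and 1018.3 at 10 h, at 2.11-fold and 2.16-fold. IgG peaks covered 5.59% of the 2 h and 23.8% of the 10 h peak. IgG-free peaks found at both re-fed times lay in intron 1 (110.0 normalised tags at 2 h and 368.3 at 10 h), in intron 19 (123.3 at 2 h and 385.8 at 10 h) and in intron 25 (9.48 at 2 h and 329.4 at 10 h), where the peaks of both times met only at their ends. The fasted list had no peak at any of these. A 10 h peak in intron 5 reached 4.39-fold over input with 44.3 normalised tags, and the 2 h peak in intron 25 reached 9.52-fold over an input of 2 tags. Gm13613, on the opposite strand, and the pseudogene Gm13614 overlap Abcb11, and because both strands were pooled in peak calling their tags were not separated from it.

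Slco1b2, an organic anion uptake transporter gene (chr6:141629518-141686646, plus strand), held 455.5 (fasted; interval 427.1 to 485.3), 1161.2 (2 h; 1115.6 to 1208.1) and 2677.4 (10 h; 2602.9 to 2753.5) normalised tags, against 1275.7 in the IgG library. The 10 h value was 5.88 times the fasted and 2.31 times the 2 h one. It was 2.10-fold higher than IgG, or 1.31-fold higher outside the most tagged IgG peak. No peak of the gene reached 3-fold over input at any time. All 3 fasted peaks met IgG peaks, while 2 of 5 peaks at 2 h and 3 of 5 at 10 h were IgG-free. A single 500 bp peak at 10 h in intron 4 (chr6:141650604-141651104) held 725.0 normalised tags at 2.16-fold, had no fasted, 2 h or IgG peak over it and rested on an input of 335.2 per 10000000. Just before it in the same intron lay an IgG peak of 194.8 normalised tags (chr6:141649305-141650354). In intron 12 an IgG-free peak of 495.5 normalised tags over 3736 bp at 2 h was met at 10 h by one of 412.6 over 1312 bp. Intron 5 was the only place with a peak at all 3 times, with 85.1 (fasted), 335.2 (2 h) and 567.4 (10 h) normalised tags, against 188.5 in the IgG peak over it.

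Abcb4, the phosphatidylcholine transporter gene (chr5:8893717-8959231, plus strand), was lowest at 2 h and not in fasted liver. It held 554.8 (fasted; interval 523.5 to 587.6), 298.5 (2 h; 275.8 to 323.0) and 1269.4 (10 h; 1218.4 to 1322.2) normalised tags, against 497.4 in the IgG library. It had most peaks at 2 h, with 6 (fasted), 11 (2 h) and 9 (10 h), of which 4, 8 and 6 were IgG-free. Both of the regions in the 9 genes with a NONO peak at all 3 times and no IgG peak lay here. The region in intron 6 (chr5:8907431-8909024) held 174.5 (fasted), 14.2 (2 h) and 138.4 (10 h) normalised tags, and that in intron 12 (chr5:8922423-8924381) held 30.9, 39.4 and 43.2. The first, like the gene, was lowest at 2 h, and the second was lowest in fasted liver. With peaks of at least 3-fold over input alone, Abcb4 held 0 (fasted), 52.1 (2 h) and 0 (10 h) normalised tags, so its low value at 2 h rests on peaks below that fold. The pseudogene Gm17936 overlaps Abcb4.

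Abcc2, the canalicular conjugate transporter gene (chr19:43782192-43840740, plus strand), was the only member highest in fasted liver. It held 1248.9 (fasted; interval 1201.7 to 1297.7), 266.0 (2 h; 244.4 to 288.9) and 345.1 (10 h; 318.9 to 373.3) normalised tags, against 781.2 in the IgG library. A single peak of low fold made this order, and with peaks of at least 3-fold alone the gene held 0 (fasted), 49.3 (2 h) and 0 (10 h). It held 992.3 normalised tags at 2.01-fold over 652 bp (chr19:43838538-43839190), lay inside the last exon, exon 32, in the 3′ untranslated region, and was the only one of the 173 NONO peaks with its midpoint in an exon. No 2 h, 10 h or IgG peak lay over it. Without it the fasted value was 256.6 normalised tags, and the 2 h and 10 h values were 1.04 and 1.34 times as high (a comparison chosen after its values were seen).

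**Figure D3:**
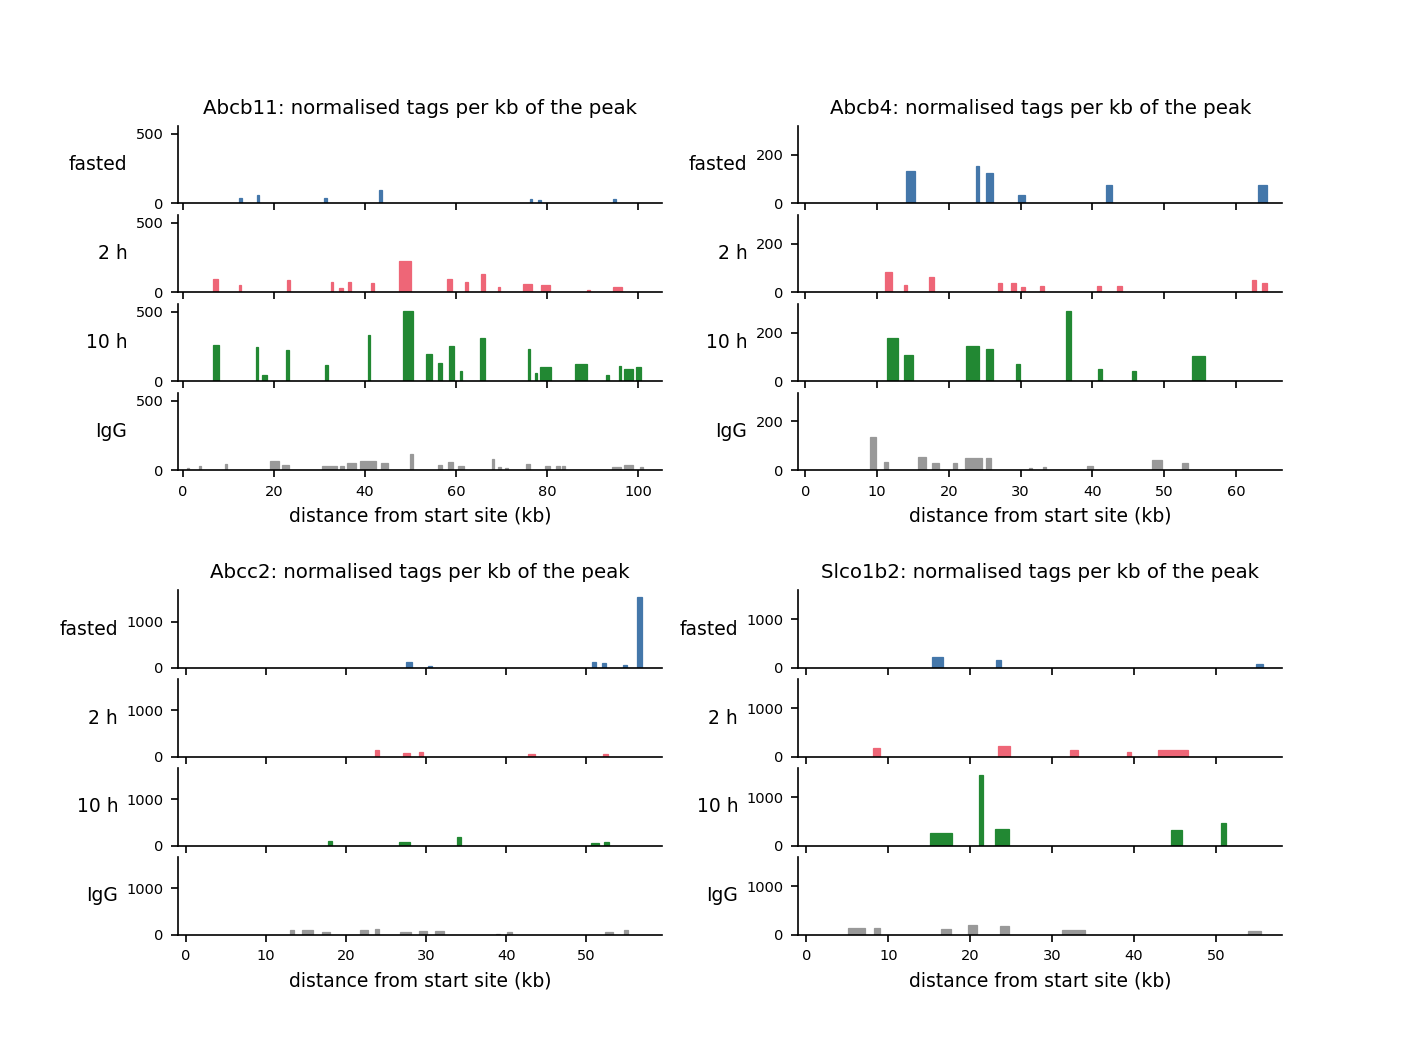
Peaks along Abcb11, Abcb4, Abcc2 and Slco1b2, each with tracks for fasted, 2 h and 10 h NONO and then IgG; the x axis is distance from the start site in kb and bar height is normalised tags per kb of the peak on a linear scale common to the tracks of a gene. The fasted exon 32 peak of Abcc2 stands alone at 1521.9 per kb, and the 10 h intron 4 peak of Slco1b2 at 1450.0 per kb.

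Slc10a1, the sodium-dependent bile acid uptake transporter gene (chr12:80953183-80968705, minus strand), had 1 peak at each re-fed time, in different introns. It had no fasted peak, 153.6 normalised tags at 2 h (interval 137.3 to 171.3) and 50.9 at 10 h (41.1 to 62.3), against 169.5 in the IgG library. The 2 h peak in intron 3 met an IgG peak and the 10 h peak in intron 2 did not.

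Ordered by normalised tags per kb of gene body, Cyp7b1 led in fasted liver at 39.3, followed by Abcc2 at 21.3, Abcb4 at 8.47, Slco1b2 at 7.97 and Abcb11 at 1.96. At 2 h Cyp7b1 was at 203.9 per kb and the next, Cyp7a1, at 26.1. At 10 h Slco1b2 led at 46.9 per kb and Abcb11 followed at 38.9, with Cyp7a1 at 19.9, Cyp7b1 at 19.8 and Abcb4 at 19.4. In the IgG list Cyp7a1 was first at 77.0 per kb and Cyp7b1 second at 34.3. Abcb4 and Slco1b2 in fasted liver, and Cyp7a1, Cyp7b1 and Abcb4 at 10 h, had overlapping counting intervals.

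The peaks over these genes were rich in input and low in fold. The median peak over the 9 genes had 98.0 (fasted), 81.7 (2 h) and 102.0 (10 h) normalised tags per kb of peak, against 47.7 in the IgG list, while the median over the whole lists was 25.6, 20.8, 25.2 and 15.4. Input per kb was higher too, with medians of 44.2 (fasted), 34.9 (2 h) and 43.9 (10 h) per 10000000 tags, against 9.10, 6.60 and 8.88 over the whole lists. The median fold was 2.15 (fasted), 2.32 (2 h) and 2.16 (10 h), against 2.82, 3.13 and 2.84 over the whole lists. A fold of at least 3 was reached by 1 of 39 fasted, 8 of 60 2 h and 2 of 74 10 h peaks over the members, beside 44.4%, 53.9% and 43.6% of all peaks in those lists, and by 16 of 97 IgG peaks, beside 73.8%.

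**Figure D4:**
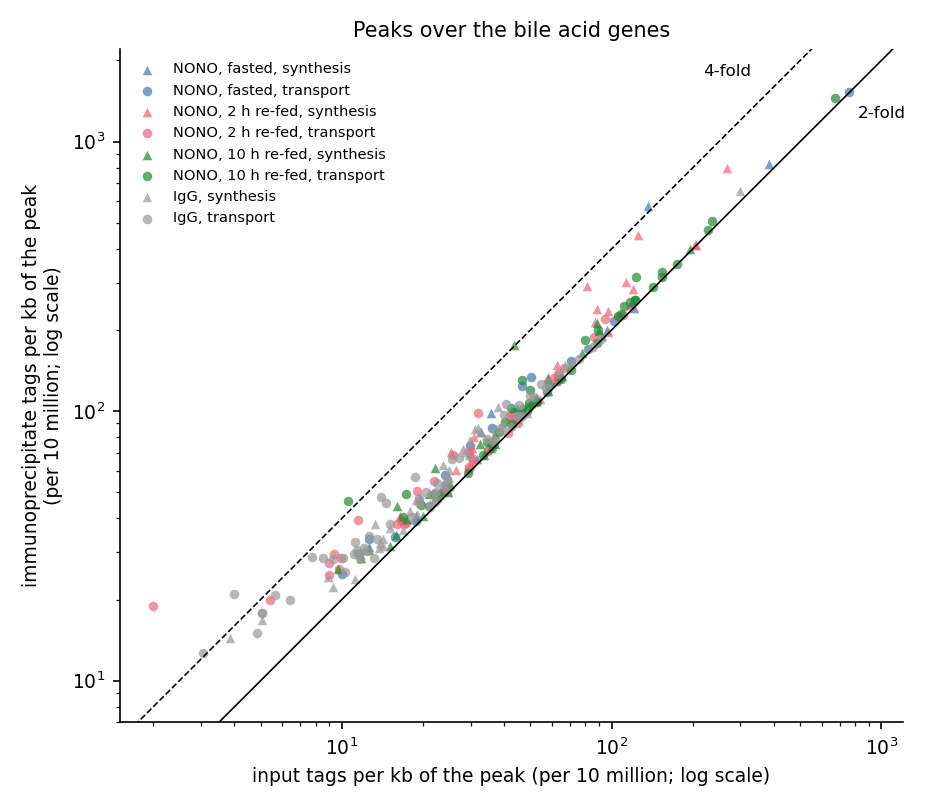
Each peak over the 9 genes by input tags per kb of peak (x) and immunoprecipitate tags per kb of peak (y), both per 10000000 tags on logarithmic axes; triangles are synthesis and circles transporter genes, colours are the lists, and the solid and dashed lines mark 2-fold and 4-fold over input. Most points lie just above the 2-fold line that peak calling required, over the whole range of input.

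IgG peaks met most of the NONO peaks by at least 1 bp, though fewer over a wide part. Of the NONO peaks over the members, 33.3% (13 of 39, fasted), 35.0% (21 of 60, 2 h) and 37.8% (28 of 74, 10 h) were IgG-free, beside 66.3%, 60.7% and 60.5% of all peaks in those lists. The share was lower over synthesis genes, at 17.6% (fasted), 22.7% (2 h) and 23.5% (10 h), than over transporter genes, at 45.5%, 42.1% and 50%. Cyp7b1 carried most of those synthesis peaks, with 3 of 17 (fasted), 3 of 16 (2 h) and 6 of 31 (10 h) IgG-free. Cyp7a1 had 1 of 2 (2 h) and 0 of 1 (10 h) IgG-free, and Cyp27a1 had 1 of 4 and 2 of 2. Where only peaks covered to at least 50% by IgG peaks were set aside (counted so after the data were seen), 23 of 39 (fasted), 34 of 60 (2 h) and 36 of 74 (10 h) peaks were left, beside 79.2%, 78.4% and 75.3% of all peaks. The share was then 47.1% (fasted), 59.1% (2 h) and 32.4% (10 h) over synthesis genes and 68.2%, 55.3% and 62.5% over transporter genes, so that the order of both sets turned at 2 h. The median peak width was 799 (fasted), 2028.5 (2 h) and 805 bp (10 h) over synthesis genes and 661, 684 and 870 bp over transporter genes. Summed over a gene, NONO tags did not stand clear of IgG tags as a rule. In fasted liver 0 of 5 members were at least 2-fold higher than IgG and 2 were lower (Abcb11 and Slco1b2), beside 25.9% and 22% of all genes with a peak in both lists. At 2 h 2 of 8 were higher (Cyp7b1 and Cyp27a1) and 2 lower (Cyp7a1 and Abcc2), beside 49.3% and 10.0% of all genes. At 10 h 3 of 8 were higher (Abcb11, Abcb4 and Slco1b2) and 3 lower (Cyp7a1, Abcc2 and Slc10a1), beside 37.4% and 12.3%. With IgG tags taken outside its most tagged peak the members higher were 0 (fasted), 1 (2 h, Cyp7b1) and 0 (10 h), beside 13.3%, 26.4% and 19.6% of all genes. Those lower were then 2 (fasted), 3 (2 h) and 4 (10 h), beside 37.2%, 18.6% and 22.9%.

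In tags, the IgG-free peaks held 2.70% (fasted), 1.47% (2 h) and 20.8% (10 h) of the Cyp7b1 signal, and 35.1%, 20.4% and 38.9% of the Abcb11 signal. They held 64.2% (fasted), 57.0% (2 h) and 47.6% (10 h) of the Abcb4 signal, 86.5%, 18.2% and 40.9% of the Abcc2 signal and 0%, 46.5% and 53.5% of the Slco1b2 signal. Of the genes without a fasted peak, Cyp27a1 had 9.02% (2 h) and 100% (10 h) in them, Cyp7a1 21.02% and 0%, and Slc10a1 0% and 100%.

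**Figure D5:**
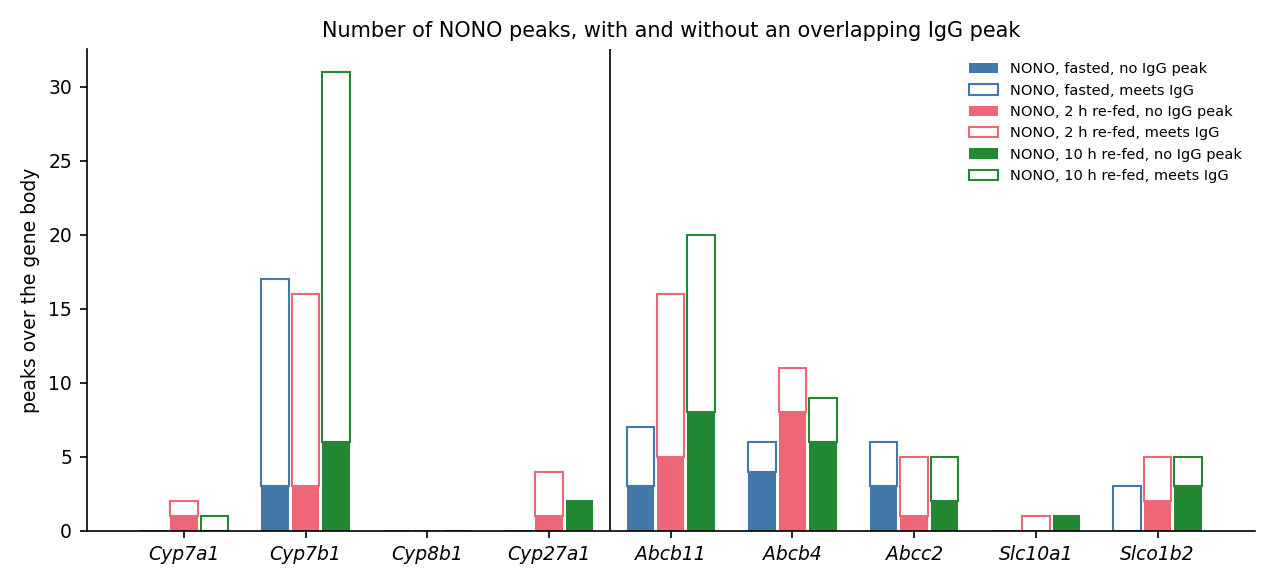
Number of NONO peaks over each of the 9 genes in fasted, 2 h and 10 h liver from left to right; the filled part of a bar counts IgG-free peaks and the open part peaks that an IgG peak overlaps. Cyp7b1 has 31 peaks at 10 h, 6 of them IgG-free, and no Slco1b2 peak in fasted liver is IgG-free.

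Joined over the 3 times, the NONO peaks made 92 separate regions, of which 16 had a peak at all 3 times, 23 at a pair of times and 53 at 1 time. Of all 97530 regions joined in the same way over the whole lists, 11.6% had a peak at all 3 times, 23.5% at a pair and 64.9% at 1 time. Cyp7b1 had 8 of its 19 regions at all 3 times, against 3 of 28 for Abcb11, 2 of 16 for Abcb4, 2 of 11 for Abcc2 and 1 of 9 for Slco1b2. Wide 2 h peaks over Cyp7b1 joined several narrow ones of other times into 1 region. Exonic bases of protein-coding transcripts made up 0.377% of the NONO peak length over the members. By time the share was 2.28% (fasted), 0.111% (2 h) and 0.0689% (10 h), beside 2.76%, 2.28% and 2.69% for all peaks inside protein-coding genes. In fasted liver 653 of the 836 exonic bases lay in the single peak in exon 32 of Abcc2. IgG peaks over the members were 0.189% exonic, beside 2.24% for all IgG peaks inside protein-coding genes. Gene bodies were 7.24% exonic as a whole, and that of Cyp7b1, which held much of the peak length, 1.26%. No NONO peak reached the stretch from 250 bases before to 50 bases after a start site, in the RefSeq promoter windows of the 7 members that have one.

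Other genes of bile acid handling were taken from a list by role. In other steps of synthesis 11 (fasted), 13 (2 h) and 12 (10 h) of 16 genes had a peak, and 11 had an IgG peak, beside 28.4%, 33.9%, 32.7% and 34.6% of all protein-coding genes. Of those of at least 10 kb, 41.2%, 47.5%, 46.1% and 47.7% had a peak. Scp2, a peroxisomal thiolase and sterol carrier of side chain shortening, held 2112.0 (fasted), 5054.1 (2 h) and 4674.7 (10 h) normalised tags, against 1205.5 in the IgG library. Hsd17b4, the peroxisomal bifunctional enzyme, held 372.8, 808.2 and 510.9, against 330.6 in IgG, and Slc27a2, a very long chain acyl-CoA synthetase, had no fasted peak, 718.8 at 2 h and 630.8 at 10 h, against 614.9 in IgG. Over the list, 6 of 11 genes with a peak in both were at least 2-fold higher at 2 h than in fasted liver, and 1 was lower, with a median ratio of 2.17, beside 45.3% and 7.69% of all genes. At 10 h 5 of 10 were higher and 1 lower, with a median of 1.87, beside 32.1% and 9.06% of all genes.

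In other transport 10 (fasted), 9 (2 h) and 8 (10 h) of 14 genes had a peak, and 10 an IgG peak, beside the same shares of all genes (28.4%, 33.9%, 32.7% and 34.6%). Among genes of at least 10 kb the shares were 41.2%, 47.5%, 46.1% and 47.7%. Atp8b1, a canalicular phospholipid flippase, held 92.2 (fasted), 622.2 (2 h) and 536.8 (10 h) normalised tags, against 325.4 in the IgG library. Abcg2, an efflux transporter, held 233.4, 280.4 and 204.7, against 132.7 in IgG. Slco1a1, an uptake transporter related to SLCO1B2, held 1116.4 (fasted), 441.0 (2 h) and 1122.3 (10 h), against 838.1 in IgG, lowest at 2 h as Abcb4 was. At least 2-fold higher at 2 h than in fasted liver were 2 of 8 genes, and 1 was lower, with a median ratio of 0.984, beside 45.3% and 7.69% of all genes. At 10 h 3 of 7 were higher and 1 lower, with a median of 1.88, beside 32.1% and 9.06%.

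Of 14 regulators of bile acid genes 7 (fasted), 8 (2 h) and 9 (10 h) had a peak, and 8 an IgG peak, beside 28.4%, 33.9%, 32.7% and 34.6% of all genes. Among genes of at least 10 kb the shares were 41.2%, 47.5%, 46.1% and 47.7%. Nr1h4, which encodes the bile acid receptor FXR, held 596.2 (fasted), 4685.5 (2 h) and 3157.8 (10 h) normalised tags, against 2459.5 in the IgG library, and none of its 3 fasted peaks was IgG-free. Nr5a2, which encodes the nuclear receptor LRH-1, held 403.1, 1253.8 and 1038.7, against 523.7 in IgG, and Nr1i2, which encodes the xenobiotic receptor PXR, held 291.3, 623.1 and 267.7, against 269.0 in IgG. At least 2-fold higher at 2 h than in fasted liver were 3 of 7 regulators, and 1 was lower, with a median ratio of 1.75, beside 45.3% and 7.69% of all genes. At 10 h 4 of 7 were higher and 1 lower, with a median of 2.06, beside 32.1% and 9.06%. Nr0b2, which encodes the repressor SHP, had no peak in any list.

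For each member with a peak at all 3 times, the nearest of 9676 other protein-coding genes that had a peak somewhere was found by Euclidean distance of log2(normalised tags + 1) over the 4 lists. Egfr was nearest to Cyp7b1 at a distance of 0.856, with 6179.8 (fasted), 53669.1 (2 h), 4054.0 (10 h) and 8416.3 (IgG) normalised tags. Pde4d was nearest to Abcb4 (0.812), Gpam to Slco1b2 (0.914), Cth to Abcb11 (1.104) and Hnf4a to Abcc2 (1.48). The measure rests on 4 libraries and on sums over gene bodies of different length.

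The labelled tissue was read against marker lists of 5 liver cell types. Of 7 hepatocyte genes 1 (fasted), 2 (2 h) and 2 (10 h) had a NONO peak and 4 an IgG peak. Among all protein-coding genes 28.4%, 33.9%, 32.7% and 34.6% had a peak in those lists. Summed over these few hepatocyte genes, normalised tags were 3763.2, 6939.8, 12878.9 and 12081.0. Only 1 of them had a peak at both re-fed times. No list had a peak over any of 6 cholangiocyte genes, among them Krt19, Krt7 and Epcam. Kupffer cell genes summed to 23.8 (fasted), 33.6 (2 h), 74.5 (10 h) and 22.1 (IgG) normalised tags, endothelial genes to 299.0, 664.2, 750.3 and 298.0, and stellate cell genes to 47.1, 40.8, 82.1 and 2463.9. Hepatocyte, Kupffer cell and endothelial sums were, like the transporter sum, higher at each later time, and their part in it was not tested. In bulk nuclei fewer cells of a type and less RNA per cell cannot be told apart, and a gene without a peak may still be expressed.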

How the data were processed

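RIP-seq libraries from liver nuclei had been made with a stranded total RNA kit after removal of ribosomal RNA, per the labels' protocols. Tools in the submitters' processing notes are HOMER, STAR 2.4.0k and FastQC 0.11.2, with mm10 as genome build. HOMER peak calling, per the file headers, used a 500 bp window, merged hits up to 1000 bp apart, ignored strand, and asked for 2-fold or more over each library's own input. The tag threshold was 11 tags in the NONO lists and 8 in the IgG list. As signal, the authors deposited a peak's tags per 10000000 tags of the library. Fold, as deposited, is immunoprecipitate over input at equal library size, and the deposited score is HOMER's peak score, used only to shorten lists. The deposited input tags under a peak are scaled to the immunoprecipitate in some lists and not in others, so input per 10000000 tags was taken as the signal times the ratio of both tag columns. Reads were not used here.

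A peak counted for every GENCODE vM21 gene body it overlapped by 1 bp. Gene sums, covered length and overlap with IgG peaks were computed in Python 3.11.15 with numpy 2.4.6, pandas 2.3.3 and scipy 1.17.1. Exons were those of protein-coding transcripts, and numbers of exons and introns follow 1 transcript a gene. The depth, 18275033 to 21091048 tags a library, sets the counting intervals. The 9 genes, the pathway lists and the markers were chosen with earlier results of these data known. The rule names all 9 members and, of each pathway list, the 3 genes with most NONO peaks. It also asks for the sequence around the most tagged IgG-free peaks, and for their GC and repeat content. Those are not reported here, because the genome sequence was not used, and exon sequence from transcripts is shown in its place. The overlap code found all 2000 planted overlaps in simulated data over 21951 genes.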

Additional observations from a re-analysis of the deposited data

How the results depend on the processing

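No paired analysis was possible because there is only 1 library in each group, and for the same reason no library could be left out. Alternatives were a fold of at least 3 in all lists, lists cut to their 38209 best-scoring peaks, peak midpoints inside the gene, IgG peaks over at least 50% of a NONO peak, and IgG tags outside the most tagged IgG peak. Equally long lists (for tags, added after the data were seen) and midpoints kept every count and sum of the synthesis and transporter genes within 1.5 times. No NONO peak over the members crossed an end of its gene, so the midpoint rule could not change any NONO value. The fasted list, the shortest, was not cut, so its peaks could not change in the equally long lists. The wider IgG overlap kept the numbers of genes with an IgG-free peak within 1.5 times. Counts of IgG-free peaks were compared after the data were seen, and over synthesis genes it moved them to 8 (fasted) and 13 (2 h), in place of 3 and 5.

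A fold of at least 3 moved 33 of 36 such values. It was asked of IgG peaks too, so IgG-free here means met by no IgG peak of at least 3-fold. Over synthesis genes it left 1 gene (Cyp7b1) in each list, with 1 (fasted), 2 (2 h), 1 (10 h) and 2 (IgG) peaks and 4078.4, 11307.7, 518.2 and 17.9 normalised tags, and 1 gene with an IgG-free peak at each time, with 1 (fasted), 2 (2 h) and 1 (10 h) such peaks. Over transporter genes it left 0 (fasted), 3 (2 h), 1 (10 h) and 3 (IgG) genes, with 0, 6, 1 and 14 peaks and 0, 134.6, 44.3 and 313 normalised tags, and 0 (fasted), 3 (2 h) and 1 (10 h) genes with an IgG-free peak, with 0, 5 and 1 such peaks. Some peaks so counted did meet IgG peaks of lower fold. Those of Cyp7b1 were covered by them over 17.7% (fasted), 43.6% and 83.1% (both 2 h peaks), and the 2 h peak of Abcc2 over 96%. The 10 h transporter sum was then below the 2 h sum. The summed tags of Cyp7b1 kept their order of times at that fold, with log2 ratios of 1.47 (2 h over fasted), -2.98 (10 h over fasted) and -4.45 (10 h over 2 h). Those sums also follow the width of the joined peaks. Per kb, the peak of highest fold held 575.3 (fasted), 451.4 (2 h) and 176.6 (10 h) normalised tags, most in fasted liver. Outside the most tagged peak, IgG tags were 10965.7 over synthesis and 6400.6 over transporter genes. Without the fasted exon 32 peak, added after the data were seen, the log2 ratio of Abcc2 was 0.05 at 2 h and 0.43 at 10 h over fasted, in place of -2.23 and -1.86.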

Other observations

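Several well-known genes of bile acid handling carried no peak in any list. Most protein-coding genes carried none either, since 9677 of 21951 had a peak in any of the 4 lists. The bile acid genes without one ranged in length from 1.07 to 56.2 kb. Besides Cyp8b1 (1.95 kb) these were, among the synthesis genes, Ch25h (1.39 kb), Hsd3b7 (3.20 kb) and Cyp46a1 (27.9 kb), and, among the regulators, Gpbar1 (1.07 kb), Nr0b2 (3.16 kb), Fgf15 (4.42 kb), Mafg (8.48 kb) and Vdr (56.2 kb). Among the transporters Slc51a (13.4 kb) and Slc51b (10.2 kb), which encode the basolateral organic solute transporter, had none. Nr1i3, which encodes the xenobiotic receptor CAR, is 6.73 kb long and carried 1 peak of 260.5 normalised tags at 10 h, against 1807.8 in the IgG library.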
